A study of Homo sapiens with 2 samples.

Results

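The promoters of stand-alone long non-coding RNA (lncRNA) genes were described in the accessible chromatin of H1 human embryonic stem cells. A member is a distinct accessible region whose strongest summit, the position of highest enrichment, lay within 1000 bp of the annotated 5′ end of a lncRNA gene and more than 5000 bp from the start of every protein-coding transcript. Of 160327 regions, 3433 (2.14%) met this rule, and the genes nearest to them numbered 3105. The rule used position alone, so that the height, width and sequence of the regions were free to vary.

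H1 is an established line of pluripotent stem cells derived from a human blastocyst. The study measured open chromatin by ATAC-seq: the transposase Tn5 cuts DNA that is free of nucleosomes and tags it for sequencing. The 2 samples formed 1 group, without treatment or comparison group. Per the labels the cells were thawed from frozen stocks, treated with DNase I against DNA from dead cells, purified on Ficoll and processed by the Omni-ATAC procedure. Both samples share 1 deposited peak list, and the labels do not say whether they came from separate cultures. No value can therefore be compared between replicates: every interval below counts regions or genes within 1 list, at the 95% level, and covers counting error only.

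A lncRNA is a transcript without a recognised protein product, usually made by RNA polymerase II from a promoter of its own and often spliced. Many lncRNA genes start beside a protein-coding promoter and share its open chromatin, and the stand-alone genes are those that do not. In pluripotent cells some lncRNAs are known to be transcribed from retroviral repeats or to be bound at their promoters by OCT4, SOX2 and NANOG. CpG-rich promoters are as a rule open in many tissues, while CpG-poor promoters more often depend on transcription factors of 1 cell type.

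Of 18866 annotated lncRNA genes, 13552 (71.8%) were stand-alone by their 5′ end, and 3303 of these had a member within 1000 bp (24.4%, interval 23.7% to 25.1%). Protein-coding genes had a region within the same distance in 71.4% of cases (14305 of 20033, interval 70.8% to 72.0%). Of the members, 15 also lay at the outermost 5′ end of a protein-coding gene whose first transcript there is non-coding, and 236 lay within 5000 bp of some non-coding transcript of a protein-coding gene. All 11 pluripotency markers looked up had a region at one of their starts, from a fold of 4.69 at SOX2 to 11.2 at ZFP42. The starts of SOX17 (endoderm), COL3A1 (fibroblasts) and CGA (trophoblast) had none. The other markers looked up for these cell types had one: GATA6 (3.61) and FOXA2 (2.94), COL1A1 (7.70) and THY1 (5.95), and GATA3 (5.20) and TFAP2A (12.6). So had the markers of neuroectoderm and mesoderm, among them PAX6 (4.96) and KDR (13.8). KDR and TFAP2A were higher than any of the pluripotency markers. A region alone therefore does not tell these cell types apart.

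The members ranged from CpG-island promoters to regions with almost no CpG, and 4 of them show that range. Each sequence below is 200 bases of GRCh38 centred on the summit, read along the gene's strand, with the bases of CG dinucleotides in capitals. SNHG8, a host of small nucleolar RNAs (chr4:118278533-118278732, plus strand), held 20 of them, and MIR31HG, the host gene of miR-31 (chr9:21559796-21559995, minus strand), held 29. PCGEM1, a prostate-associated lncRNA (chr2:192749685-192749884, plus strand), held 0. LINC00545 (chr13:30863277-30863476, plus strand), on the list of lncRNAs described in pluripotent cells, held 2.
SNHG8: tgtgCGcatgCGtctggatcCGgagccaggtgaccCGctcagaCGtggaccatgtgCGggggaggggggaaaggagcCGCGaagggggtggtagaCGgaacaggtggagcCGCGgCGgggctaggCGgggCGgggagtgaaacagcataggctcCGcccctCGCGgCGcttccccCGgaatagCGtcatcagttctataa
MIR31HG: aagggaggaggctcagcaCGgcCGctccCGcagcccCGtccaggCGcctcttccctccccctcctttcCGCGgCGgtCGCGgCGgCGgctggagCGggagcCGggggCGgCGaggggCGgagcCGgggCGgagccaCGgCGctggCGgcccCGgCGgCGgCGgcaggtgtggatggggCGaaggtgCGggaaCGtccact
PCGEM1: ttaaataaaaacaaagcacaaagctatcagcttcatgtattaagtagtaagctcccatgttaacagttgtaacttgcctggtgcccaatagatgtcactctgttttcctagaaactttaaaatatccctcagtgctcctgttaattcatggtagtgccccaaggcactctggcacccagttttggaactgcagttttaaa
LINC00545: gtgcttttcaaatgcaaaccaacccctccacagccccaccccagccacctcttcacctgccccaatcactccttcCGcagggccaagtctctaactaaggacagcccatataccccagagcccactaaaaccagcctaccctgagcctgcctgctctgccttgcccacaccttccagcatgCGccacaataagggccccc
Their fold over background, the authors' own measure of height, was 18.1 at SNHG8, 14.0 at MIR31HG, 20.8 at PCGEM1 and 10.1 at LINC00545. The member with no CpG in the printed window, PCGEM1, was the highest of the 4 (its CpG ratio over 500 bp was 0.11), and all 4 summits lay within 70 bp of the annotated 5′ end. The 4 were chosen after their values were seen. Over all members, those rich in CpG had the higher median fold (8.15 against 5.35).

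The median fold of the members was 5.96 (interval 5.75 to 6.14; 10th to 90th percentile 3.20 to 13.0), and the values ran from 1.76 to 32.9. Protein-coding promoter regions had a median of 8.61 (8.50 to 8.72, 14251 regions), and distal regions, outside the window of every gene, one of 5.20 (5.17 to 5.22, 139350 regions). The members therefore lay between both kinds, nearer to the distal regions. A fold of at least 10 was reached by 760 members (22.1%, interval 20.8% to 23.6%), against a background of 16.6% of all regions. The median width was 572 bp (range 150 to 2315 bp), against 1020 bp at protein-coding promoters and 423 bp at distal regions. More than 1 summit was found in 1542 members (44.9%), compared with 30.7% of all regions and 75.1% of protein-coding promoters.

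Summits gathered at the annotated lncRNA 5′ ends, which bears on whether these regions are promoters. Around the 11179 lncRNA genes more than 15 kb from any protein-coding start, there were 414 summits per 1000 genes and kb within 100 bp of the 5′ end. Between 900 and 1000 bp the density was 77.4, and 5 to 10 kb away it was 53.1. The peak was thus 7.80 times the density far away, and the outer edge of the window was still 1.46 times that density. At protein-coding genes the same ratios were 30.6 and 2.33. Summits are thus also met far from any start, and which members lie at a 5′ end by position only cannot be told apart.

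**Figure D1:**
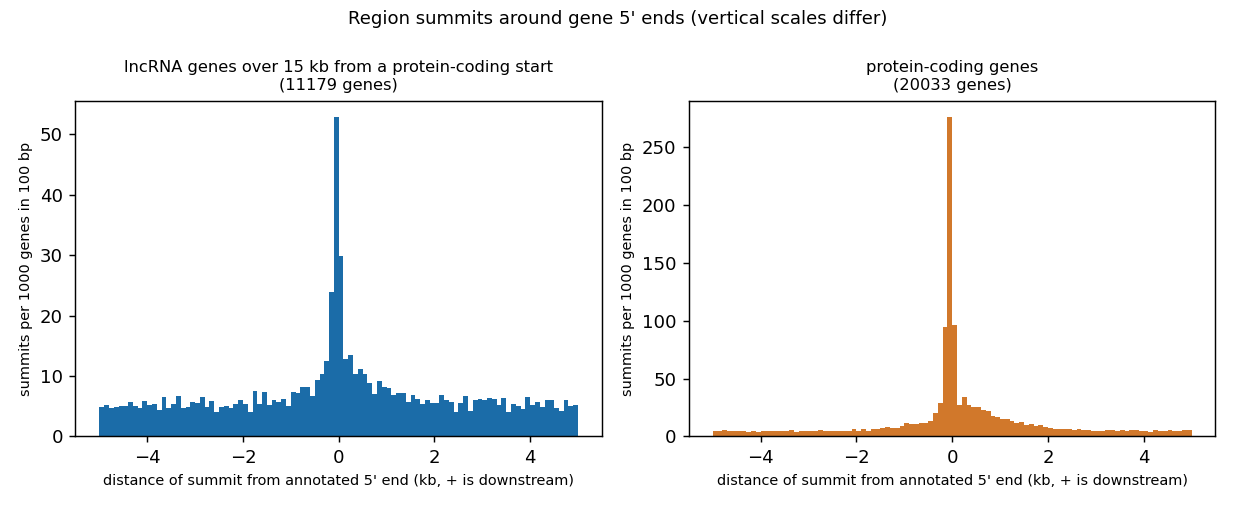
Summits per 1000 genes in bins of 100 bp (vertical axes, scales differ) against the distance of the summit from the annotated 5′ end in kb (horizontal axes), for 11179 lncRNA genes more than 15 kb from a protein-coding start and for 20033 protein-coding genes. Both sets peak just upstream of the 5′ end, and the lncRNA peak is the lower one over a similar level far away.

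Within 100 bp of the 5′ end lay 31.6% of the members (1086) and within 200 bp 44.9% (1541, interval 43.2% to 46.6%), compared with 48.9% and 63.5% of protein-coding promoter regions. Summits lay upstream of the 5′ end in 55.1% of members (interval 53.4% to 56.8%) and in 60.4% of protein-coding promoters. Among members within 200 bp, the median summit was 28 bp upstream, and at protein-coding genes 39 bp upstream.

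The members close to the 5′ end were higher, wider and richer in CpG than those further off. The median fold was 7.54 (interval from 7.16 to 7.99) within 100 bp, 6.18 from 100 to 200 bp and 5.48 from 200 to 400 bp. Beyond 400 bp it stayed between 5.11 and 5.22, close to the 5.20 of distal regions. The median width was 656 bp within 100 bp and 463 bp from 800 to 1000 bp. A region is called CpG-rich here where the 500 bp around its summit have an observed-to-expected CpG ratio above 0.6. This was so for 926 members (27.0%, interval 25.5% to 28.5%), against a background of 12.6% of all regions and 78.9% of protein-coding promoters. The share was 37.2% of members within 100 bp and 15.7% of those from 800 to 1000 bp.

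**Figure D2:**
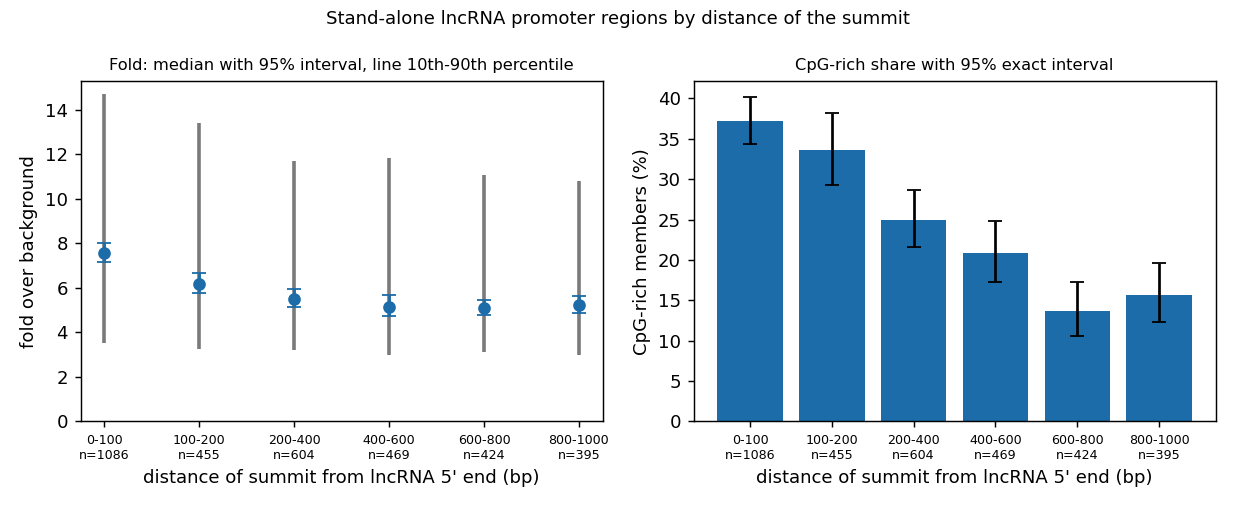
Fold over background (left axis panel: point, median with its 95% interval; grey line, 10th to 90th percentile) and share of CpG-rich members in percent (right panel: bar with 95% exact interval) in 6 classes of summit distance from the lncRNA 5′ end in bp. The median fold is 7.54 in the nearest class and between 5.11 and 5.22 in the 3 classes beyond 400 bp.

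CpG content and position went together with height, each within the other. The 557 CpG-rich members within 200 bp of the 5′ end had a median fold of 9.37, and the 369 CpG-rich members further off one of 6.33. CpG-poor members had a median of 5.86 within 200 bp (984 members) and 5.11 beyond (1523 members). Over all distances the CpG-rich members had a median of 8.15 (7.78 to 8.54) and CpG-rich protein-coding promoters one of 9.35 (9.25 to 9.44). Among CpG-poor regions the medians were 5.35 (5.24 to 5.50) for members and 5.25 (5.14 to 5.44) for protein-coding promoters, with intervals that overlap. The gap between members and protein-coding promoters in the whole set, 5.96 against 8.61, was thus much smaller within each CpG class.

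High folds were not limited to CpG-rich promoters. CpG-rich members were nevertheless more frequent among them than among all members. Of 176 members with a fold of at least 15, 71 were CpG-rich (40.3%, interval 33.0% to 48.0%), against 27.0% of all members. Another 58 were CpG-poor and had their summit no more than 200 bp from the annotated start, a class with 28.7% of all members. Of the 100 members with the highest fold, 41 were CpG-rich, against 27.0% of all members. Their summit lay within 200 bp in 78, against 44.9% of all members. Of the 100, 59 belonged to genes that carry only an Ensembl identifier, as did 2241 of all members (65.3%). Among the high CpG-poor members were PCGEM1 (20.8), KCNH7-AS1 on the strand opposite to the potassium channel gene KCNH7 (19.5) and LINC02552 (19.3). PCGEM1 lay 554852 bp from the nearest protein-coding start, that of TMEFF2.

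The CpG content of the gene's start, measured over 1000 bp around the annotated 5′ end whether open or not, went with the share of genes that had a member. Of 1269 stand-alone lncRNA genes with a ratio above 0.6, 872 had a member (68.7%, interval 66.1% to 71.3%). Of the 12283 others, 2431 had one (19.8%, interval 19.1% to 20.5%). Protein-coding genes had a region in 94.8% of 12031 CpG-rich starts and in 36.3% of 8002 CpG-poor starts. Between a ratio of 0.4 and 0.5 the shares were 28.3% of lncRNA and 56.8% of protein-coding genes, and below 0.1 they were 11.9% (interval 10.1% to 13.9%) and 14.6% (11.6% to 18.0%). The lncRNA share was the lower one in each of the 9 CpG classes, with overlapping intervals below 0.2.

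**Figure D3:**
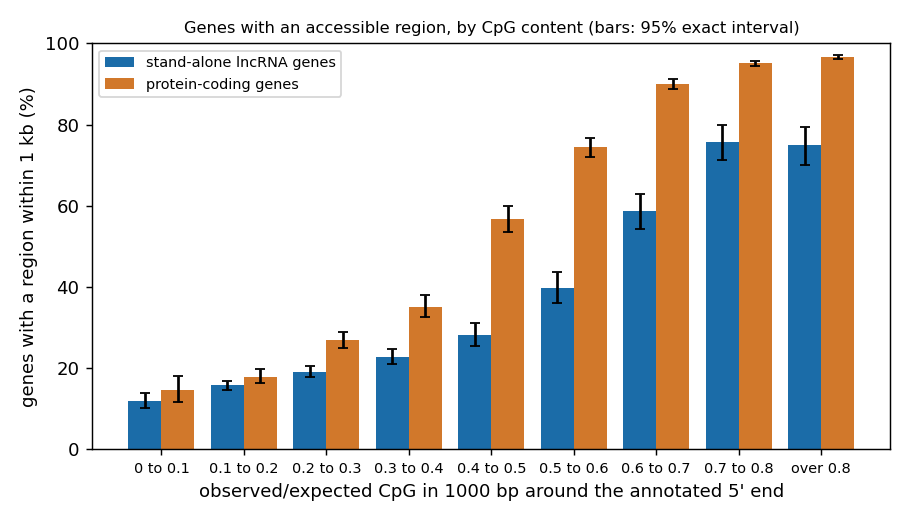
Share of genes with a region within 1 kb of the annotated 5′ end (vertical axis, percent, with 95% exact intervals) in 9 classes of observed-to-expected CpG ratio (horizontal axis), for 13552 stand-alone lncRNA and 20033 protein-coding genes. The lncRNA share rises from 11.9% in the lowest class to 75% in the highest, and the protein-coding share from 14.6% to 96.6%.

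Genes with more annotated transcripts had a member more often: 20.3% of the 9023 genes with 1 transcript and 40.5% of the 761 genes with 10 or more. The annotation counts transcripts seen in any tissue. Spliced genes (24.6%) and single-exon genes (23%, interval 21.0% to 25.0%) had overlapping shares. The share was 27.2% where the nearest protein-coding start was 10 to 50 kb away and 16.8% where it was over 500 kb away. Genes with a LINC number had a member in 29.6% of 2123 cases, and genes with no symbol in 22% of 9778.

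Most members, 2617 (76.2%), lay outside protein-coding genes, with a median fold of 6.07. Another 622 lay inside a protein-coding gene and belonged to a lncRNA on its opposite strand (median 5.59), and 194 to a lncRNA on the same strand (median 5.75). In 116 members 2 lncRNA genes started away from each other, as at divergent promoters, and their median fold was 9.26 (61.2% CpG-rich). In 90 members lncRNA genes faced each other (median 7.42, 62.2% CpG-rich). The other 3227 members had a median of 5.86 and were CpG-rich in 24.8%, beside 27.0% of all members. The most crowded member held 4 lncRNA 5′ ends, among them those of BMS1P4 and GLUD1P3, at chr10:73730171-73730878 with a fold of 9.44. Members with 3 ends included those of STAG3L5P (15), LINC02614 (14.7), LINC00680 (13.3) and ENSG00000286971 (12.5).

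Conversely, 348 lncRNA genes had 2 or more members within 1000 bp. LINC00545 had 3, with folds of 10.1 at 8 bp downstream of its 5′ end, 4.78 at 629 bp downstream and 2.45 at 541 bp upstream. Members on the X chromosome had the highest median fold of any chromosome, 8.64 (6.91 to 9.76, 63 members), and those on chromosome 22 the lowest, 4.90 (4.27 to 5.41, 73 members). Distal regions differed less between these chromosomes, with medians of 5.54 on X and 4.90 on chromosome 22.

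The highest members were a mixed group. The highest of all was at ENSG00000289901 (chr13:109424056-109424412, fold 32.9), a single-exon gene. Of its 357 bp, 256 aligned to mitochondrial DNA at 99.2% identity. ENSG00000289474, inside KIF5C on the opposite strand (fold 25.0), held a stretch of 132 bp at 98.5% identity. Mitochondrial DNA is abundant in ATAC-seq libraries, and whether reads from it contributed to these values was not tested. Another pair of members aligned to mitochondrial DNA at 90% and 78.9% identity, with folds of 7.02 and 8.32. Without the 4 members the median fold stayed at 5.96.

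The other members among the 15 highest were LINC02018 (29.5), ENSG00000291068 (28.4), LINC01609 (27.5), LINC02021 (26.1), HSD17B7P2 (23.9), ENSG00000287117 (23.7), ENSG00000291208 (23.4), LINC01572 (22.7), ENSG00000291203 (22.4), ENSG00000247134 (22), ENSG00000224905 (21.5), ENSG00000290902 (21.3) and LINC02695 (21.1). Of all 15, 6 were divergent pairs of lncRNA genes. LINC01609, with a CpG ratio of 0.07, and LINC02695, with one of 0.31, had their summits 307 and 225 bp upstream, while the summits of the others lay within 100 bp.

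Several of the highest members were similar in sequence to protein-coding promoters. Aligned at 85% identity or more over at least 300 bp, 142 members (4.14%) matched a promoter region of a protein-coding gene. The median identity was 90.5% over a median of 840.5 bp. For 84 of the 142 the gene overlapped an annotated pseudogene, against 6.93% of all members. The 142 members had a median fold of 10.1 (interval 9.17 to 11.2) and the matched promoters one of 11. Of the 142, 59 were higher than the promoter they matched. Among the 100 highest members, 14 had such a match, against 4.14% of all members. Similarity does not make each a copy of that promoter: ENSG00000287824 (20.0) matched the PCYOX1 promoter over 305 of its 965 bp and shares a sequence found in many distal regions. HSD17B7P2, a pseudogene of the steroid dehydrogenase gene HSD17B7, had a fold of 23.9 and matched the promoter of HSD17B7 (18.8) at 98.9% identity. Where sequences are nearly identical, reads cannot always be placed in 1 of them, and the sources used here do not say how such reads were treated. The 45 members with a match above 95% identity had a median fold of 9.15 and the others 10.7. The share of each fold that comes from the similar promoter was not tested.

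One sequence family, defined by the likeness of members to each other, was similar to promoters of the FAM86 genes, a family of methyltransferase genes with many pseudogenes. It had 9 members, of which ENSG00000287117 matched no protein-coding promoter by the rule above, with folds from 14.7 to 29.5 and a median of 20.5. LINC02018 (29.5) was the highest, followed by LINC02021 (26.1) and ENSG00000287117 (23.7). In the best-aligned stretch of 40 bases, shown here for 8 members to let their likeness be seen, 33 positions were identical in all, and these are in capitals. The stretches lie on GRCh38 at chr3:75435568-75435607, chr3:130111967-130112006, chr4:9691959-9691998, chr11:67805809-67805848, chr4:3955875-3955914, chr12:8243440-8243479, chr11:71787014-71787053 and chr3:125916089-125916128, in the order printed.
LINC02018: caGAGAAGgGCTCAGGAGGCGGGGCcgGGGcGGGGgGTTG
LINC02021: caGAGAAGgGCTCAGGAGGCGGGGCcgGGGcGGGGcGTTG
ENSG00000287117: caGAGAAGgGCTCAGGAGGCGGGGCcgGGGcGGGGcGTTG
FAM86C2P: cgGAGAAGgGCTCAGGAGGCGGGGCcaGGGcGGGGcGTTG
FAM86EP: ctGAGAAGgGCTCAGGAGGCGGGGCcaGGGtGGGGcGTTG
ENSG00000286895: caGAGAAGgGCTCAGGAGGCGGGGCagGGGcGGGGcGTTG
ENSG00000291186: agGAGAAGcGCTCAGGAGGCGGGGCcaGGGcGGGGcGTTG
LINC02614: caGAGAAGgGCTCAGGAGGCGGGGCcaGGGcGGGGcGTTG
The members that share this stretch differed in fold by about 2 times, between 29.5 at LINC02018 and 14.7 at LINC02614, and the 6 regions of the same sequence family that were no members had a median of 18.6.

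In all, 206 members (6.0%) fell into 61 families whose members aligned at 80% identity or more over at least 100 bp and 70% of the shorter region. The largest family had 39 members with a median identity of 82.0%. Regions like these were common throughout the list, with 1343 regions similar to the family, of which its members made up 2.90%. Repeat annotation was not used here, so the share of members on transposable elements was not analysed. Its highest members were at ENSG00000287824 (20.0), ENSG00000286929 (14.4) and PDK4-AS1 (13.4), and H19 (9.37) belonged to it as well. The second family had 9 members 197 to 514 bp wide, led by ENSG00000283674 (14.5), ENSG00000290410 (13.5) and LINC00937 (12.2).

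Motifs of transcription factors were sought as fixed strings on both strands within 50 bp of the summit. A match is a description of the sequence, not a sign of binding. The CTCF motif, the site of the insulator protein, was present in 179 members (5.21%, interval 4.49% to 6.01%), compared with 4.54% of all regions, 2.15% of protein-coding promoters and 4.77% of distal regions. In windows 500 bp from the members' summits it was present in 0.08%, and the string read backwards was found in 0 of 3433 members, which allows a share of up to 0.11%. Members with a match had a median fold of 7.49 (6.82 to 8.52) and those without one of 5.86. The share was 4.75% of CpG-rich and 5.38% of CpG-poor members. It was 8.17% (30 of 367) where the nearest protein-coding start was 5 to 10 kb away and 1.14% (2 of 175, interval 0.14% to 4.07%) beyond 500 kb.

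The sequences below are 120 bases of GRCh38 around the summit along the gene's strand, the match in capitals. They belong to the 3 highest members with a CTCF match outside chromosomes 8 and Y. These members were ENSG00000255866 (chr12:65556826-65556945, plus strand, fold 20.3), ENSG00000254443 (chr11:6363193-6363312, plus strand, fold 17.5) and ENSG00000287730 (chr4:155442425-155442544, plus strand, fold 16.9).
ENSG00000255866: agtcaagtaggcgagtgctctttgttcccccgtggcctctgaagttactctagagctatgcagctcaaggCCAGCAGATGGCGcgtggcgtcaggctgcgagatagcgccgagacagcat
ENSG00000254443: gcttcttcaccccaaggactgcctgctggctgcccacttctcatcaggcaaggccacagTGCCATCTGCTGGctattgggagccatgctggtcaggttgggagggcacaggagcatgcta
ENSG00000287730: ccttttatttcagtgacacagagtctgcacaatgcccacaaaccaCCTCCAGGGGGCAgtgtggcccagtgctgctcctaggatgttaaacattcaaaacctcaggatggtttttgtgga
The match in ENSG00000254443 is on the opposite strand to the gene, and its summit lay 454 bp downstream of the 5′ end. The summits of the other members of the trio lay 39 and 165 bp upstream of theirs.

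The GC box, ETS and NRF1 motifs, typical of CpG-island promoters, were less common in the members than at protein-coding promoters and more common than at distal regions. The GC box (GGGCGG), bound by SP and KLF factors, was found in 684 members (19.9%), in 10.2% of all regions, in 46.6% of protein-coding promoters and in 6.01% of distal regions. The backwards string was found in 19.1% of members, nearly as often as the GC box itself. Among CpG-rich regions the shares were 46.0% of members, 53.0% of protein-coding promoters and 40.3% of distal regions. The ETS motif (CCGGAAG) was present in 90 members (2.62%, interval 2.11% to 3.21%), with 1.3% of all regions, 7.39% of protein-coding promoters and 0.62% of distal regions. Its backwards string was found in 1.81% of members. The NRF1 motif (GCATGCGC), of a factor that acts on genes of mitochondrial function, was present in 24 members (0.70%), with 0.379% of all regions, 2.03% of protein-coding promoters and 0.19% of distal regions. The CCAAT box (CCAAT), bound by NF-Y, was present in 464 members (13.5%), a share equal to the 13.5% of all regions, with an interval (12.4% to 14.7%) that holds the 12.6% of distal regions. At protein-coding promoters the share was 21.8%, above that interval, and the backwards string was found in 8.42% of members. The CCAAT box reached 17.3% in members within 200 bp of the 5′ end and 10.5% in the others, and was 12.4% in windows 500 bp away. The YY1 motif (AAGATGGC) was present in 10 members (0.29%, interval 0.14% to 0.54%). This was less often than at protein-coding promoters (1.01%) and than over all regions (0.56%), both above the interval. The interval holds the 0.51% of distal regions.

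Members with an ETS match were high, with a median fold of 10.3 (7.20 to 11.3) against 5.92 without. They were also rich in CpG, with a median CpG ratio of 0.73 against 0.33 without. Of the 90, 59 were CpG-rich, beside 27.0% of all members. The height was not compared within CpG classes. Outside chromosomes 8 and Y the highest members with a match were ENSG00000290683 (19.1), ZNF790-AS1 (18.0) and ANKRD20A5P (17.9). The first 2 are shown by 120 bases around the summit along the gene's strand, the match in capitals, at chr1:247210843-247210962 (minus strand) and chr19:36797391-36797510 (plus strand).
ENSG00000290683: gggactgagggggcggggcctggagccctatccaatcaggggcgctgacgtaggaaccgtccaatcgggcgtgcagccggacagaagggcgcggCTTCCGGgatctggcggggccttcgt
ZNF790-AS1: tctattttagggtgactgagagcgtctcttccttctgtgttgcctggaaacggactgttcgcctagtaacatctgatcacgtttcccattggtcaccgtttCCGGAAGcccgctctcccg
The X box (GTTGCCAT), the site of RFX factors known from genes of cilia, was present in 41 members (1.19%, interval 0.86% to 1.62%). Its share was 0.859% of all regions, 0.67% of protein-coding promoters and 0.40% of the windows 500 bp away. The members' interval holds the 0.88% of distal regions. The median fold of the 41 members was 9.27 (6.48 to 10.4). Of them 32 were CpG-poor, beside 73.0% of all members. The highest of the 41 outside chromosomes 8 and Y was ENSG00000287687 (15.7), whose summit lay exactly at the annotated 5′ end. It was followed by ENSG00000277235 (13.6) and ENSG00000258035 (13.2). The sequence of ENSG00000287687, at chr2:74778720-74778839 on the minus strand, is printed with the match in capitals.
ENSG00000287687: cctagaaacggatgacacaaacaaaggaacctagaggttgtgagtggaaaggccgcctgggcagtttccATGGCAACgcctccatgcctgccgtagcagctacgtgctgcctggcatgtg

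Strings of the ZIC, AP-1, TEAD and GATA motifs were found in the members more often than at protein-coding promoters, but for GATA not more often than in the controls. The ZIC motif (CAGCAGG) was present in 283 members (8.24%), beside 8.84% of all regions and 4.14% of protein-coding promoters. The highest members with it outside chromosomes 8 and Y were ENSG00000290832 (18.8), OR51H1 (18.6) and ENSG00000288074 (18.2). The AP-1 motif (TGANTCA) was present in 144 members (4.19%, with 4.45% of all regions), the TEAD motif (ACATTCC) in 106 (3.09%, with 3.85%) and the GATA motif (AGATAA) in 96 (2.80%, with 3.73%). In windows 500 bp from the members' summits the shares were 2.70% for ZIC, 2.41% for AP-1, 1.67% for TEAD and 7.10% for GATA, and the backwards strings were found in 0.41%, 1.31%, 0.61% and 2.74% of members. The protein-coding shares were 1.52% for AP-1, 0.93% for TEAD and 0.93% for GATA. In CpG-poor members the shares of ZIC (9.77%), AP-1 (5.15%) and TEAD (3.91%) were near those of CpG-poor distal regions (9.57%, 4.96% and 4.36%).

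The octamer (ATGCAAAT) bound by OCT4 was present in 59 members (1.72%, interval 1.31% to 2.21%), against 2.29% of all regions, 0.67% of protein-coding promoters and 0.78% of windows 500 bp away. The SOX motif (ACAATGG) was likewise present in 59 members (1.72%), against 2.34% of all regions, and its backwards string in 0.96%. The median fold with an octamer, 6.08 (5.08 to 7.31), had an interval that held the 5.96 without. The composite site on which OCT4 and SOX2 bind side by side was matched in its strict form by 1 member, ENSG00000214650 (fold 9.40), 1 bp from its 5′ end. It is shown with the match in capitals (chr12:124513163-124513282, plus strand), because it is the only member that matched this string. Over all regions the string was matched by 27 (0.02%), so that a single member tells little about the set.
ENSG00000214650: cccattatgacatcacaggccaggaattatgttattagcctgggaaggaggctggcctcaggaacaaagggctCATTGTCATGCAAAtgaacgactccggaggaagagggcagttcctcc
The motif of REST, a repressor of neuronal genes, was found in 0 of 3433 members, which allows a share of up to 0.11%. It was found in 0.08% of protein-coding promoters (11 of 14251) and 0.05% of all regions (73), both under that limit, so no difference is detectable.

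**Figure D4:**
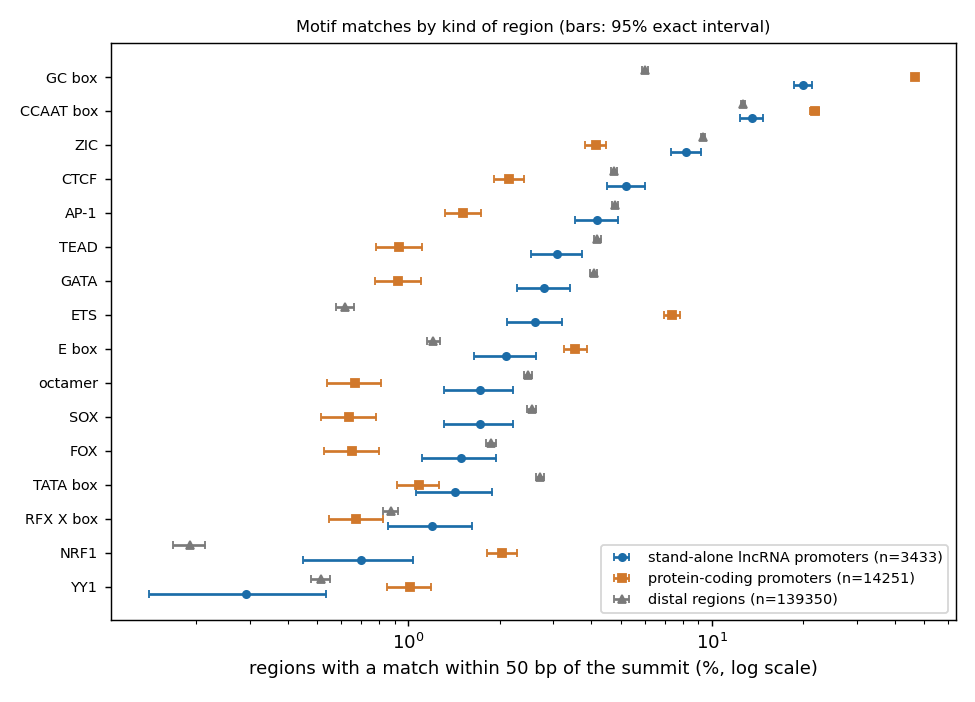
Share of regions with a motif match within 50 bp of the summit (horizontal axis, percent on a log scale, with 95% exact intervals) for 16 motifs with at least 5 matches in the members, in 3433 members (circles), 14251 protein-coding promoters (squares) and 139350 distal regions (triangles). For the GC box and ETS the members lie between both other kinds, and for CTCF they lie beside the distal regions.

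The TATA box (TATAAA) is positioned about 30 bp upstream of the start where RNA polymerase II uses it. It was sought from 40 to 17 bp upstream of the annotated 5′ end. Of 1622 stand-alone lncRNA genes with a summit within 200 bp, 12 had it there (0.74%, interval 0.38% to 1.29%), and 11 had it 100 bp further upstream (0.68%). Of 9900 protein-coding genes with a summit within 200 bp, 159 had it (1.61%, interval 1.37% to 1.87%), and 12 had it 100 bp further upstream (0.12%). The excess at that position over the one further up, present at protein-coding genes, was not detectable at these 1622 lncRNA genes. It was present at the 10238 lncRNA genes without a summit within 1 kb, with 156 (1.52%, interval 1.30% to 1.78%) against 101 (0.99%, interval 0.80% to 1.20%) further up.

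The lncRNAs described in pluripotent cells were accessible at 9 of 14 stand-alone genes on the list (64.3%, interval 35.1% to 87.2%). The 9 had a median fold of 7.77. Beside them stand the 24.4% of all stand-alone genes with a member. LINC00467 had the highest fold, 14.6 (chr1:211382593-211383446), with a CpG ratio of 0.98 and the summit 8 bp from its 5′ end. LINC00545 had 10.1, LINC00698 had 8.88, LINC00678 had 8.78, LNCOG (LINC02407) had 7.77 and LNCPRESS2, a p53-regulated lncRNA of stem cells, had 6.60. The summit at LNCOG lay 657 bp upstream and that at LINC00698 lay 792 bp downstream, and of the 9 genes LINC00467 and LINC00545 had their highest summit within 200 bp. LNCPRESS1 had its higher member 540 bp downstream (4.22) and a lower one 33 bp downstream (2.96). The ratio of CpG was below 0.1 at LINC00678, LINC00698, LNCOG and LNCPRESS2.

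ESRG and LINC-ROR, lncRNAs named for their part in stem cells and reprogramming, had no member. LINC00392 had none either, with its nearest summit 15559 bp away. The nearest summits of ESRG and LINC-ROR lay 1564 bp (fold 14.1) and 3808 bp (fold 5.25) from the annotated 5′ end. MIR302CHG, the host of the miR-302 cluster, had a summit 1039 bp from its outermost end, just outside the window, and one 272 bp from another annotated start. LINC00458 had a summit 57 bp from another start. With any annotated start in place of the outermost one, 11 of the 14 genes had a region. The share of all stand-alone genes under that choice was not computed. Other lists rose with it as well, such as microRNA hosts from 31 to 46 of 69.

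Lists of widely expressed lncRNAs and of snoRNA hosts had the highest shares. Both lists hold SNHG5, SNHG8, SNHG14 and SNHG15. All stand-alone genes had a member in 24.4% of cases, and those with a CpG ratio above 0.6 at their start in 68.7%. Of 23 widely expressed stand-alone lncRNAs, 21 had a member (91.3%, interval 72.0% to 98.9%), with a median fold of 11.4. They were led by SNHG8 (18.1), DANCR (16.2), SNHG5 (14.3), SNHG15 (13.6), EPB41L4A-AS1 (13.5) and LINC00263 (13.5). NORAD, which binds Pumilio proteins, had 11.4 with its summit at the annotated 5′ end, and MALAT1, a nuclear RNA of speckles, had 9.90. NEAT1, the scaffold of paraspeckles, was the lowest with 2.94, and had members 472 bp upstream and 54 bp downstream of its 5′ end, the latter at 2.70. SNHG14 and TTN-AS1 had none. TTN-AS1 had a summit 3 bp from another of its annotated starts. Of 18 genes named as snoRNA hosts, 16 had a member (88.9%, interval 65.3% to 98.6%, median 10.9). Among them were SNHG30 (16.5) and SNHG21 (15.4), and SNHG14 and SNHG27 had none. All 15 members nearest to such a gene were CpG-rich, beside 27.0% of all members.

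Of 15 lncRNAs of imprinting and X inactivation, 8 had a member (53.3%, interval 26.6% to 78.7%), beside 24.4% of all stand-alone genes. The median fold of the 8 was 9.57. The highest were JPX (14.1), an activator of X inactivation, then LINC02609 (13.6), FIRRE (11.7), a repeat-rich RNA of the X chromosome, FTX (9.76), H19 (9.37) and PWRN1 (7.99). KCNQ1OT1, the RNA of an imprinted domain on chromosome 11, had 6.95. AIRN, MEG3 and MEG8 had no member, although MEG8 had a summit 54 bp from another start.

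The developmental and HOX lncRNAs with a member had the lowest median fold of the 7 lists, though not the lowest share of genes with one. A member was present at 7 of 12 stand-alone genes (58.3%, interval 27.7% to 84.8%), beside 24.4% of all stand-alone genes. The 7 had folds from 4.09 to 5.46 with a median of 4.88, under the 5.96 of all members. They were SOX9-AS1 (5.46), MIAT (5.20), HOXA-AS2 (4.88), LINC00261 beside FOXA2 (4.88), CARMN (4.35), LINC00461 (4.24) and DLX6-AS1 (4.09). LINC00461 had its summit within 200 bp of its 5′ end, and the other 6 had theirs further off. BANCR, LINCMD1 and PAX8-AS1 had none. Another 30 genes of this list start within 5000 bp of a protein-coding start and were not members by the rule.

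Of 25 cancer-associated lncRNAs, 12 had a member (48.0%, interval 27.8% to 68.7%), beside 24.4% of all stand-alone genes. The 12 had a median fold of 7.77 and were led by FALEC (13.2), CCAT2 (11.1), PCAT7 (10.9), DLEU1 (10.4), CYTOR (9.40) and LINC01116 (9.0). BCAR4, CASC15 and CASC19 had none at the outermost end, but CASC15 had a summit 15 bp from another start. Of 69 microRNA host genes, 31 had a member (44.9%, interval 32.9% to 57.4%, beside the same 24.4%), with a median of 7.16. The highest were MIR325HG (15.3), MIR31HG (14.0), MIR155HG (13.9), MIRLET7A1HG (10.6), MIR3142HG (10.5) and MIR762HG (9.96). MIR17HG, the host of the miR-17-92 cluster, had 8.30 in the widest member of all, 2315 bp with 7 summits. MIR1-1HG, MIR122HG and MIR124-1HG, hosts of microRNAs of muscle, liver and brain, had none at their outermost end.

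**Figure D5:**
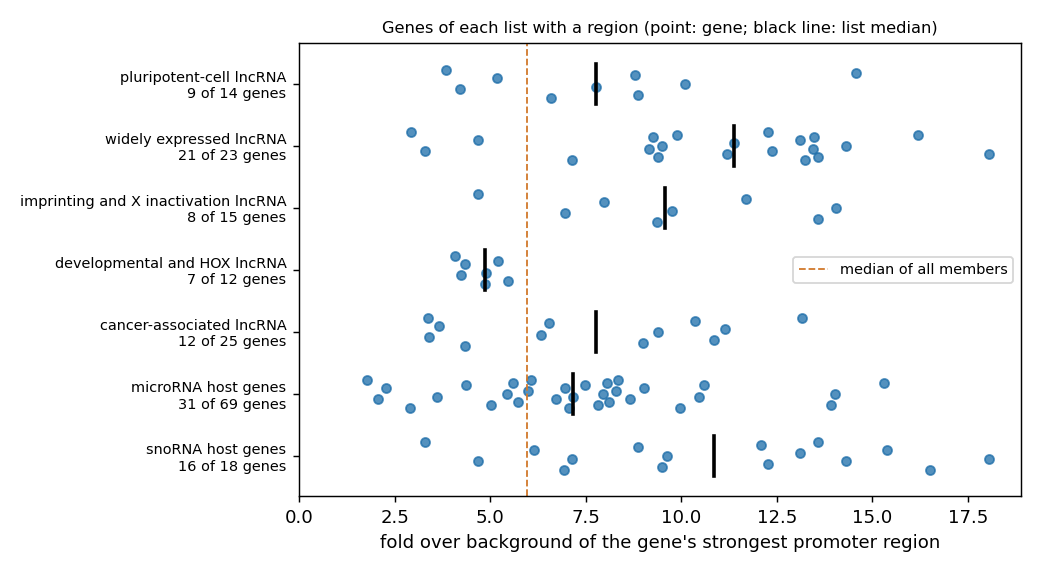
Fold over background of the strongest promoter region (horizontal axis) for each gene with a member in 7 lists of lncRNA genes (rows, with the number of genes with a member of all stand-alone genes in the list). Points are genes, black lines are list medians, and the dashed line is the median of all members. The developmental and HOX genes lie between 4.09 and 5.46, and most widely expressed genes lie above 9.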

How the data were processed

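ATAC-seq of 2 samples of H1 cells gave 1 deposited list of peaks. Per the submitters' processing notes the build was GRCh38. The sources used here name no aligner, caller, read shift or filter. The file has no header and follows the narrowPeak layout: the deposited fold (ratio to background), the deposited −log10 p and the deposited score are the authors' values, of which the fold was used to describe, rank and filter regions and the −log10 p for 1 alternative. Library depths were not analysed here. Rows with equal coordinates were taken as 1 region, with the summit of highest fold.

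The 5′ ends are the outermost ones in GENCODE 44. CpG ratios used 500 bp around the summit, motifs 18 consensus strings. Sequences came from hg38, similar regions from blastn 2.17.0 and alignments from mafft 7.526. Intervals are exact binomial (Clopper-Pearson) or, for medians, from order statistics, at 95%. Distances, motif search and intervals were tested on simulated data. No test between groups of samples was possible, and no p-value is given. Alternatives changed the windows, the annotated starts and the filters on regions and genes; the closing section gives their effect.

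The members, the lists and the motifs were chosen with earlier results of these data known. Named genes followed a rule: the 15 highest members, the 5 with the most lncRNA 5′ ends, the 5 genes with the most regions in their body, the 6 highest and the first 3 without a region in each list, and the 3 highest of each detailed motif and of each of the 3 largest families. Other genes named were chosen after their values were seen: those whose sequences show the range of CpG content, KCNH7-AS1, LINC02552, NORAD, MALAT1, NEAT1, KCNQ1OT1, DLX6-AS1, MIR17HG, LNCPRESS1, LINC01122, LINC00458 and MIR302CHG. Genes on chromosome Y were left out of the naming. Members on chromosome 8 were also left out of the choice of the highest members with a motif and of the printed sequences.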

Additional observations from a re-analysis of the deposited data

How the results depend on the processing

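No paired analysis was possible because the study has 1 group and both samples share 1 list, and for the same reason leaving out a replicate was not possible. The 6 results were the 3433 members, the 24.4% of stand-alone genes with a member, the median fold of 5.96, the 44.9% of members within 200 bp, the 27.0% CpG-rich and the 5.21% with a CTCF match. Each stayed within its interval (the count within 1.5 times) under another choice of summit, the canonical transcript start, a distance of 2 or 10 kb from protein-coding starts, spliced genes alone, without mitochondrial-like regions, and, added after seeing the data, with the starts of all transcripts of protein-coding genes. A window of 500 bp gave 18.1% of genes, a fold of 6.32, 64.0% within 200 bp (the window itself removes distant summits) and 31.9% CpG-rich. Regions above the list's median −log10 p left 2003 members, 15.4% of genes, a fold of 8.88, 51.2% within 200 bp, 35.8% CpG-rich and 6.79% with CTCF. A fold of at least 5 left 2095 members, 16.3%, 8.65, 51.7%, 33.6% and 6.97% in the same order. Both settings select on height by construction. With any base of the region in the window, 26.7% of genes had a member and 39.9% of members lay within 200 bp. Without regions at 5′ ends of other gene types, 22.2% of genes had one and 23.2% of members were CpG-rich. Without members similar to a protein-coding promoter region, added later, these values were 23.1% and 24.6%. For the shifts with no reason given here the cause was not tested. Added later as well, counts of listed genes under the canonical start or any annotated start stayed within 1.5 times. Any annotated start nevertheless raised some counts: from 31 to 46 of 69 microRNA hosts, 12 to 17 of 25 cancer-associated and 7 to 10 of 12 developmental genes. The count of snoRNA hosts stayed at 16 of 18. The ratio of summit density was 7.45 for genes over 50 kb from a protein-coding start.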

Other observations

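Some long lncRNA genes held many accessible regions in their bodies and none at their 5′ end. ENSG00000285280 on chromosome 1 held 76 regions in 789928 bp, CASC15 held 69 in 990272 bp and ENSG00000228566 held 68 in 1028783 bp. MIR3681HG held 67 in 868988 bp and ENSG00000229618 held 65 in 1025769 bp. These counts are not scaled by length, and long genes can hold more regions. None of the 5 had a region within 1000 bp of its outermost 5′ end. LINC01122 held 60 regions in 636029 bp and had a member at its 5′ end with a fold of 9.86. The 3303 genes with a member held 0.64 regions per 10 kb of their length and the 10249 without held 0.48, a count that includes the region at the 5′ end itself where it lies in the gene.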
